A study of Mus musculus with 12 samples.

Results

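The genes described here are 10 components of the integrated stress response that centre on the transcription factor ATF4, out of 22180 genes measured in mouse liver. They are Atf4, Atf5, Atf3, Ddit3, Trib3, Chac1, Sesn2, Asns, Psat1 and Phgdh. Each was chosen by name and read from a probe set (a group of short probes against one transcript) that the array annotation gives to that gene alone, and each of the 10 had 1 such probe set. All 10 were measured and no filter on low signals was applied, so all 10 entered every test.

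Livers came from male C57BL/6 mice, 1 mouse per array and 3 mice per group. KO mice, deficient in Ahnak, which encodes a very large scaffold protein, were compared with wild-type (WT) mice under each of 2 diets kept up for 8 weeks. The 4 groups, matched for body weight, were KO on a high-fat diet (HFD, 60% fat), KO on regular chow, WT on HFD and WT on chow. The age of the mice, the deleted stretch of Ahnak and the cells that lack it are not given in the labels. Where the Ahnak probe set lies relative to the deletion is not known, so its level does not check the genotype labels, which were taken as given. It averaged 6.54 ± 0.08 log2 in KO and 7.02 ± 0.26 log2 in WT on HFD, and 6.60 ± 0.19 log2 in KO and 6.64 ± 0.17 log2 in WT on chow (SD, n = 3 each). KO was lower by the test on HFD, without overlap (-0.48 ± 0.14 log2, SE, limma adjusted p = 0.0483). On chow it was not (-0.04 ± 0.14 log2, limma adjusted p = 0.971).

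Signals are the deposited log2 values, so a difference of 1 is a doubling. Array medians were 5.58 to 5.70, and arrays of one group correlated with r of 0.992 to 0.994 across genes, which are not independent replicates. The 3 WT HFD arrays were far from the other 9, with scores of up to 32.3 on the first principal component (32.2% of the variance) where the others had -18.5 to -4.0, and they enter every comparison in which a gene of the set passed the test. As they are the whole of their group, no result involving that group can be given without them. The 6 measured hepatocyte markers were bright in every group, with summed signals of 16.01 to 16.09 log2. Of these 6, 1 passed between KO and WT on HFD: Cps1 was 0.36 ± 0.07 log2 higher in KO without overlap (limma adjusted p = 0.00882). Precision is limited by 3 arrays a group.

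In the integrated stress response, kinases that sense endoplasmic reticulum (ER) stress, amino acid shortage, haem shortage or double-stranded RNA phosphorylate the translation factor eIF2α. Bulk protein synthesis then falls while the mRNA of Atf4, and that of Atf5, is translated more, so ATF4 protein can rise with little change in Atf4 mRNA. ATF4 binds composite C/EBP-ATF response elements and raises genes for amino acid synthesis and uptake together with the regulators Ddit3, Atf3, Trib3, Chac1 and Sesn2. In liver the pathway is known from amino acid restriction, ER stress and mitochondrial stress, where it also raises the hormone gene Fgf21. Protein levels and eIF2α phosphorylation were not analysed here.

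Promoter windows of 300 bases, from 250 before to 50 after a RefSeq transcription start (GRCm38.p6), were searched on both strands for the core of the C/EBP-ATF response element, TGATGNAA. The 10 genes had 12 windows. The core was found in 4 of these 12 windows, of Atf3, Asns, Trib3 and Chac1, and in 1304 of all 32851 windows (3.97%). These 4 are printed 5′ to 3′ along the gene, with the match in capitals, because genes that share the core are among those whose signals moved in opposite directions below.
Chac1, chr2:119350992-119351291, plus strand: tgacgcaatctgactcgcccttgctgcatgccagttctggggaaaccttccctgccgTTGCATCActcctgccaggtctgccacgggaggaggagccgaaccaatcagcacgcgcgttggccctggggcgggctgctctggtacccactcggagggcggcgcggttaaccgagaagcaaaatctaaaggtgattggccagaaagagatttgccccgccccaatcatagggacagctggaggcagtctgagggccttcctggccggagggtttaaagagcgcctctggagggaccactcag
Asns, chr6:7693160-7693459, minus strand: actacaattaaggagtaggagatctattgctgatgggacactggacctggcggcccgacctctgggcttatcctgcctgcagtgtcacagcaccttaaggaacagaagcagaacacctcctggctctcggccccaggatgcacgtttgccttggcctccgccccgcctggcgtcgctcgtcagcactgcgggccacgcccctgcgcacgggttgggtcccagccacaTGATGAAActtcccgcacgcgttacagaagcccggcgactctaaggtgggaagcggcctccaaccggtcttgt
Atf3, chr1:191183284-191183583, minus strand: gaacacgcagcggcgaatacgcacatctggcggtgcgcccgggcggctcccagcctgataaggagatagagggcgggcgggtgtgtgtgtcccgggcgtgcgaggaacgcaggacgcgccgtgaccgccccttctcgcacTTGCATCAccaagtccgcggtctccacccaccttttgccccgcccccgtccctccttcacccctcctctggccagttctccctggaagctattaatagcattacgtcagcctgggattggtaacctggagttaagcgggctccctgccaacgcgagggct
Trib3, chr2:152344011-152344310, minus strand: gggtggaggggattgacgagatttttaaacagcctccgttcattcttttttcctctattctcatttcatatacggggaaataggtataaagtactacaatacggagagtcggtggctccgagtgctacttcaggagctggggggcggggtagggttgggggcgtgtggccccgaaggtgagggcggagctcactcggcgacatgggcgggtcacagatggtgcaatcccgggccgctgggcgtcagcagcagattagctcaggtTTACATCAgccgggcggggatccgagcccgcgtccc
The match starts 193 bases before the start site in Chac1, 23 before it in Asns and 110 before it in Atf3, and at base 15 of the transcript in Trib3. It reads along the gene in Asns as TGATGAAA and on the other strand in the other three, which therefore show TTGCATCA in Chac1 and Atf3 and TTACATCA in Trib3. The palindromic cAMP response element TGACGTCA, a site of ATF and CREB factors, was in none of the 12 windows and in 588 of all windows (1.79%). One position cannot match both motifs, though their ends could overlap. A match describes letters only, and a window without one says nothing of elements farther away.

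On HFD the set split between KO and WT. Atf5, a transcription factor that is translated under the same control as ATF4, was 2.48-fold higher in KO livers. Ddit3, which encodes the transcription factor CHOP, was 2.57-fold lower in KO, and Chac1, which encodes an enzyme that degrades glutathione, was 2.19-fold lower in KO. Atf4 itself, Atf3, Trib3, Sesn2, Asns, Psat1 and Phgdh did not pass the test (limma fit of all 12 arrays, Benjamini-Hochberg adjusted p under 0.05 over all genes). Thus 1 of 10 was called higher and 2 of 10 lower, where 10.5% of all genes were called, 3.89% higher and 6.62% lower. With each array centred on its median, 545 of all genes were called higher and 1937 lower, in place of 862 and 1469, and the same 3 calls among the 10 stood. The median log2 difference of the 10 was 0.03, and that of all genes rounded to 0.00. Arrays of KO and WT on HFD did not overlap for 7 of the 10, where 28.6% of all genes did not overlap. KO was the higher for 4 of these, where 13% of all genes lay that way, and the lower for 3, where 15.6% did.

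**Figure D1:**
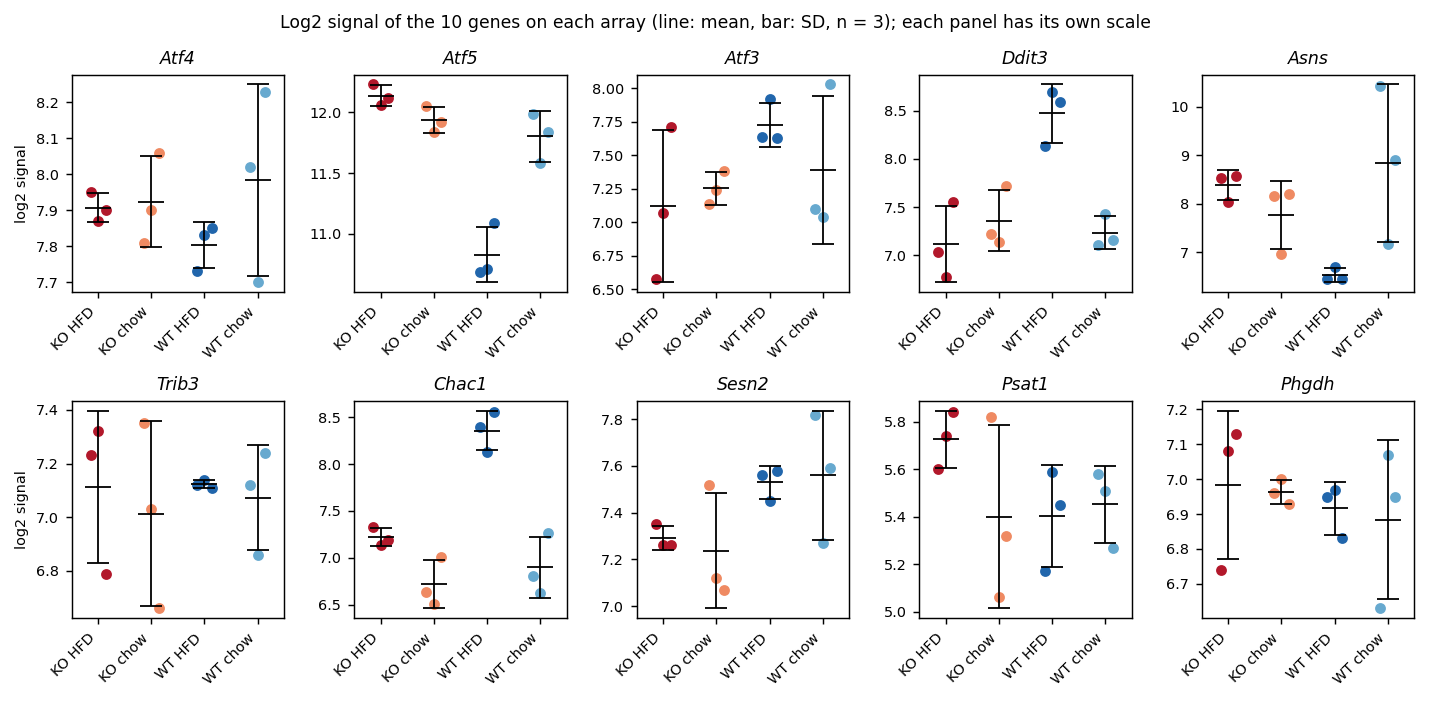
Log2 signal (vertical axis, own scale in each panel) of the 10 genes on each array, by group from left to right KO HFD, KO chow, WT HFD and WT chow; points are mice, the line is the mean and the bar the SD of 3 mice. The WT HFD points of Ddit3 (8.13 to 8.70) and Chac1 (8.13 to 8.55) lie above all other groups, and those of Atf5 (10.69 to 11.09) and Asns (6.44 to 6.69) lie below all other groups.

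Among the transcription factors, Atf4 signals were 7.95, 7.87 and 7.90 log2 in the 3 KO livers on HFD, against 7.73, 7.83 and 7.85 log2 in the 3 WT livers on HFD. The KO values lay just above the WT values without overlap. The difference of 0.10 ± 0.12 log2 (SE) did not pass the test (limma adjusted p = 0.666), and its 95% interval ran from -0.16 to 0.37. On chow, Atf4 was 7.81, 7.90 and 8.06 log2 in KO and 8.02, 7.70 and 8.23 log2 in WT, which overlapped.

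Atf5 gave 12.23, 12.06 and 12.12 log2 in KO on HFD, against 10.69, 10.71 and 11.09 log2 in WT on HFD. Every KO array exceeded every WT array. The difference was 1.31 ± 0.13 log2 (limma adjusted p = 8.85e-05, 95% interval 1.03 to 1.60). On chow it was 12.05, 11.84 and 11.92 log2 in KO and 11.99, 11.58 and 11.84 log2 in WT, values that overlapped.

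Ddit3 gave 7.03, 6.77 and 7.55 log2 in KO on HFD, against 8.13, 8.70 and 8.59 log2 in WT on HFD. All 3 WT livers were above the highest KO liver. The difference was -1.36 ± 0.22 log2 (limma adjusted p = 0.00188, 95% interval -1.83 to -0.89). On chow the KO livers had 7.22, 7.14 and 7.72 log2 and the WT livers 7.11, 7.43 and 7.16 log2, so these groups overlapped.

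Atf3, a stress-induced factor that ATF4 and CHOP are known to act on, gave 6.58, 7.07 and 7.71 log2 in KO on HFD, against 7.64, 7.92 and 7.63 log2 in WT on HFD. The third KO liver lay among the WT livers. The difference of -0.61 ± 0.28 log2 did not pass (limma adjusted p = 0.213), and its interval from -1.22 to 0.00 includes a fall as deep as that of Chac1. On chow KO livers had 7.14, 7.24 and 7.38 log2 and WT livers 7.10, 7.04 and 8.03 log2, overlapping again.

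Among the feedback and effector genes, Chac1 gave 7.33, 7.14 and 7.19 log2 in KO on HFD, against 8.39, 8.13 and 8.55 log2 in WT on HFD. The groups were separated by more than the range within either. The difference was -1.13 ± 0.17 log2 (limma adjusted p = 0.00154). On chow KO livers had 6.64, 6.51 and 7.01 log2 and WT livers 6.81, 6.62 and 7.26 log2, which overlapped.

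Trib3, a pseudokinase that binds ATF4 and AKT, gave 7.23, 7.32 and 6.79 log2 in KO on HFD and 7.12, 7.14 and 7.11 log2 in WT on HFD. The KO livers fell on both sides of the WT livers. The difference was -0.01 ± 0.18 log2 with an interval from -0.39 to 0.38 (limma adjusted p = 0.99), so the large changes of Ddit3 and Chac1 were outside the interval of Trib3.

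Sesn2, a leucine sensor that restrains the growth kinase complex mTORC1, gave 7.35, 7.26 and 7.26 log2 in KO on HFD and 7.56, 7.45 and 7.58 log2 in WT on HFD. The groups did not overlap, yet the difference of -0.24 ± 0.14 log2 did not pass (limma adjusted p = 0.358). A difference of like size was seen on chow, -0.32 ± 0.14 log2 (limma adjusted p = 0.692), where KO and WT overlapped.

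Among the enzymes, Asns, which makes asparagine, had the widest range of the 10 genes over the 12 arrays, 3.98 log2. It gave 8.54, 8.03 and 8.58 log2 in KO on HFD, against 6.44, 6.69 and 6.45 log2 in WT on HFD. These groups did not overlap, and within each the spread was small. On chow it gave 8.16, 6.96 and 8.20 log2 in KO and 10.42, 7.17 and 8.91 log2 in WT, an SD of 0.71 and 1.63. The KO against WT difference on HFD, 1.86 ± 0.60 log2 with an interval from 0.55 to 3.17, did not pass in the fit of all 12 arrays (limma adjusted p = 0.0739). That fit shares one spread between the groups, and the adjusted p was 0.000528 in limma with only the 6 HFD arrays, 0.0151 without WT chow replicate 1 and 0.0108 without WT chow replicate 2. In 15 of 20 alternative settings it still did not pass, with an adjusted p of up to 0.166 in limma with 1 array left out.

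Psat1 and Phgdh, which catalyse steps of serine synthesis, did not pass in any of the 6 comparisons. Psat1 gave 5.60, 5.74 and 5.84 log2 in KO on HFD and 5.17, 5.59 and 5.45 log2 in WT on HFD, so the lowest KO liver lay just above the highest WT liver. Its signals over all arrays, 5.06 to 5.84 log2, lay within the range of 8 genes of other tissues that liver should lack, 4.21 to 5.85 log2, so Psat1 was at or near the dim end of the arrays. Phgdh gave 6.74, 7.08 and 7.13 log2 in KO on HFD and 6.95, 6.97 and 6.83 log2 in WT on HFD, which overlapped. The intervals of the differences ran from -0.06 to 0.70 for Psat1 and from -0.21 to 0.34 for Phgdh.

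On chow none of the 10 genes differed between KO and WT by the test in limma, where 0.00902% of all genes, 2 of 22180, were called. At an unadjusted p under 0.05 there was 1 of the 10, Sesn2, and 1558 of all genes. The KO and WT arrays overlapped for all 10, where 13.2% of all genes did not overlap. Asns had the largest standard error, and its difference of -1.06 ± 0.60 log2 on chow was not detectable at that spread (limma adjusted p = 0.769).

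HFD against chow in WT livers gave the reverse of the split, with the same WT HFD arrays. Ddit3 rose 2.36-fold on HFD (1.24 ± 0.22 log2, limma adjusted p = 0.00503) and Chac1 rose 2.75-fold (1.46 ± 0.17 log2, limma adjusted p = 0.000529). Atf5 was 1.97-fold lower on HFD (-0.98 ± 0.13 log2, limma adjusted p = 0.00106) and Asns 4.96-fold lower (-2.31 ± 0.60 log2, limma adjusted p = 0.0396). So 2 of the 10 were called higher and 2 lower, where 6.96% of all genes were called, 4.02% higher and 2.94% lower. The HFD and chow arrays of these 4 genes did not overlap, where 26.4% of all genes did not overlap, 14.2% with HFD the higher and 12.2% with HFD the lower. The other 6 overlapped and did not pass: Atf4 differed by -0.18 ± 0.12 log2, Atf3 by 0.34 ± 0.28, Trib3 by 0.05 ± 0.18, Sesn2 by -0.03 ± 0.14, Psat1 by -0.05 ± 0.17 and Phgdh by 0.03 ± 0.13 log2.

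The fall of Asns in WT on HFD rested on widely spread chow arrays, with 1 mouse at 10.42 log2. Its call was lost on leaving out any 1 array other than KO chow replicate 2 or WT chow replicate 2: the adjusted p was 0.0504 to 0.0528 without KO HFD replicate 1, 2 or 3 or KO chow replicate 1 or 3, and 0.0901 to 0.111 without WT HFD replicate 1, 2 or 3 or WT chow replicate 1 or 3. Without WT chow replicate 1 the difference was -1.52 log2, and without WT chow replicate 2 it was -3.14 log2 with an adjusted p of 0.00204. The calls of Atf5, Ddit3 and Chac1 held in limma without any 1 array, in this comparison and in KO against WT on HFD.

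In KO livers none of the 10 genes passed between HFD and chow in limma, where 0.243% of all genes, 54, were called. At an unadjusted p under 0.05 there was 1 of the 10, Chac1, and 1887 of all genes. Chac1 differed by 0.50 ± 0.17 log2 (limma adjusted p = 0.424) and Atf5 by 0.20 ± 0.13 log2 (limma adjusted p = 0.719), and for both the 3 HFD arrays lay above the 3 chow arrays. Of all genes 13.8% did not overlap, 6.99% with HFD the higher. Ddit3, at -0.24 ± 0.22 log2, and Asns, at 0.61 ± 0.60 log2, overlapped between the diets.

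**Figure D2:**
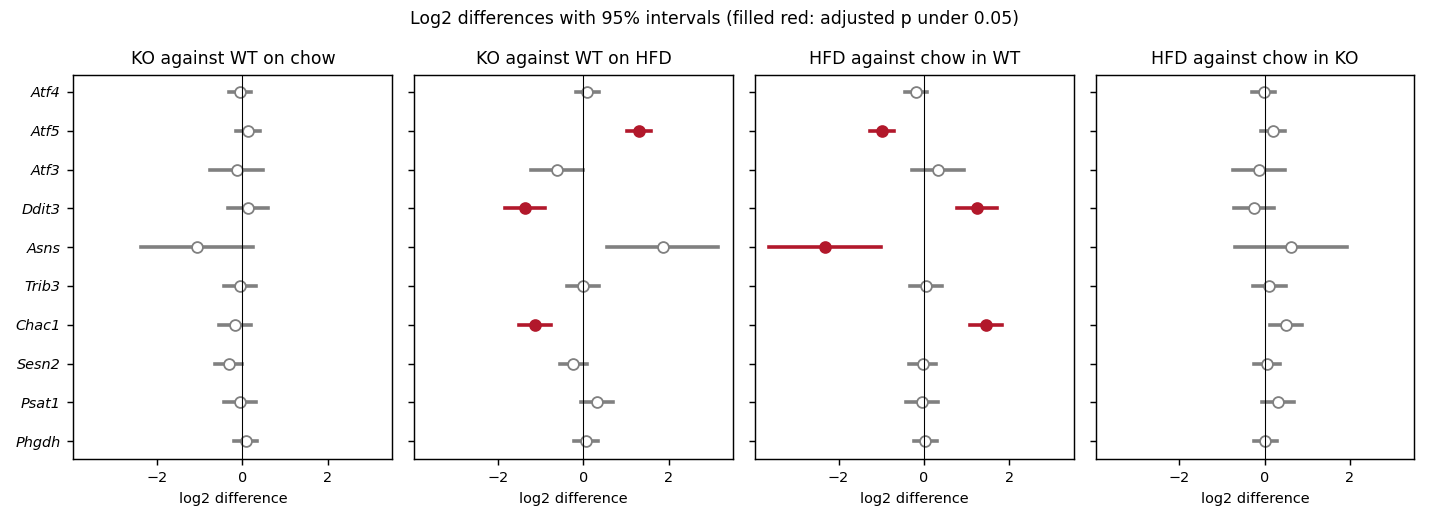
Log2 differences of the 10 genes (horizontal axis) in 4 comparisons, with 95% intervals; filled red points passed the test at an adjusted p under 0.05. Filled points stand only in KO against WT on HFD (Atf5 right of 0, Ddit3 and Chac1 left of 0) and in HFD against chow in WT (Ddit3 and Chac1 right of 0, Atf5 and Asns left of 0).

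Whether the diet response itself differed between genotypes was tested as the interaction, the HFD minus chow difference in KO minus that in WT. It passed for Atf5, 1.18 ± 0.18 log2 (limma adjusted p = 0.0051), and for Ddit3, -1.49 ± 0.30 log2 (limma adjusted p = 0.0207), so 1 of the 10 was called positive and 1 negative, where 3.53% of all genes were called, 1.43% positive and 2.1% negative. Chac1, at -0.96 ± 0.25 log2, and Asns, at 2.92 ± 0.85 log2, missed the threshold (limma adjusted p = 0.0545 for Chac1 and 0.09 for Asns). The call of Ddit3 was lost without KO chow replicate 3 (0.0504), WT HFD replicate 2 (0.0571), WT HFD replicate 3 (0.0556) or WT chow replicate 3 (0.0536). Chac1 passed without WT chow replicate 3 (0.0248), and also with the replicate block (0.0185), trend and robust eBayes (0.0258), quantile normalization (0.0452), arrays centred on their median (0.0354) and genes above the median signal (0.024). Asns passed without WT chow replicate 2 (0.00554) and among genes above the median signal (0.0443). Of 19 alternative settings, Chac1 still missed the threshold in 13 and Asns in 17. With 1 array left out the limma adjusted p reached 0.124 for Chac1 and 0.194 for Asns.

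Averaged over both diets, KO exceeded WT in Atf5 by 0.72 ± 0.09 log2 (limma adjusted p = 0.0013) and lay under WT in Chac1 by a log2 difference of -0.65 ± 0.12 (limma adjusted p = 0.0106) and in Ddit3 by one of -0.62 ± 0.15 (limma adjusted p = 0.0385). These were 1 of the 10 higher and 2 lower, where 4.81% of all genes were called, 1.45% higher and 3.36% lower. The averages came mainly from HFD, where the differences were 1.31 log2 for Atf5, -1.13 for Chac1 and -1.36 for Ddit3. On chow they were 0.13 log2 for Atf5, -0.17 for Chac1 and 0.13 for Ddit3, and none passed. For Ddit3 the call was lost without any 1 of 9 arrays, all but KO HFD replicate 3, KO chow replicate 3 and WT HFD replicate 1, with adjusted p of 0.0556 to 0.0947.

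Ordered by group mean, Atf5 was highest in KO on HFD, then KO on chow, WT on chow and WT on HFD (12.14, 11.94, 11.80 and 10.83 log2). KO and WT on chow overlapped in that order, and WT on HFD stood below the rest without overlap. Ddit3 was highest in WT on HFD (8.47 log2), and the other 3 groups, at 7.11 to 7.36 log2, overlapped with their neighbours in the order. Chac1 was also highest in WT on HFD (8.35 log2), followed by KO on HFD (7.22), WT on chow (6.89) and KO on chow (6.72), whose neighbours overlapped. Asns was lowest in WT on HFD (6.52 log2), while WT on chow (8.83), KO on HFD (8.38) and KO on chow (7.77) overlapped. The group means of Atf4 spanned only 7.80 to 7.98 log2, those of Trib3 7.01 to 7.12 and those of Phgdh 6.88 to 6.98, and all neighbours overlapped except KO and WT on HFD for Atf4.

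The genes most like each called member, by the root mean square difference of their centred log2 values over the 12 arrays, were Egfr, Got1 and Golt1a for Atf5 (0.16, 0.16 and 0.18 log2, where Atf5 itself varied by 0.52). For Ddit3 they were Acot11, Tpm2 and Cyp2a22 (0.23, 0.23 and 0.25, against 0.60), and for Chac1 Tlcd2, Fitm1 and Chil1 (0.22, 0.24 and 0.26, against 0.67). For Asns they were Irs2, Cdc42ep5 and Egr1 at 0.53, 0.56 and 0.62 log2, against 1.14 for Asns itself. None of these 12 nearest genes was one of the 10, but so few were taken from all genes that this does not show whether the 10 moved together. The nearest genes of the other 6 were not looked for.

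The other genes of the pathway were grouped by role. These lists, like the 10 genes, were chosen with earlier results of these data known, so their counts describe and do not test. For the counts below, 3.89% of all genes rose and 6.62% fell in KO against WT on HFD. In WT on HFD against chow 4.02% rose and 2.94% fell. As 10.5% of all genes were called in KO against WT on HFD, 1 call among 8 genes is near that share. Of the 4 eIF2α kinases, 1 fell in KO against WT on HFD and 0 rose. That gene was Eif2ak3, which encodes the ER stress kinase PERK: it gave 7.25, 7.36 and 7.69 log2 in KO on HFD and 7.99, 8.13 and 8.16 log2 in WT on HFD, without overlap. Its difference was -0.66 ± 0.13 log2 (limma adjusted p = 0.00557), and it rose by 0.64 ± 0.13 log2 in WT on HFD against chow (limma adjusted p = 0.01). Eif2ak4, which encodes the amino acid sensor GCN2, did not pass, at -0.13 ± 0.08 log2 in KO against WT on HFD (limma adjusted p = 0.379). Of 8 measured genes of eIF2, eIF2B and the eIF2α phosphatase, 1 rose in KO on HFD, Eif2b3, by 0.44 ± 0.10 log2 (limma adjusted p = 0.0134, but 0.0562 without WT HFD replicate 1), and 0 passed in WT on HFD against chow. There Ppp1r15a, of the phosphatase, lay lower on HFD without overlap, at -0.50 ± 0.14 log2, but did not pass (limma adjusted p = 0.0523). In that comparison 1 of the 8 passed with trend and robust eBayes, array weights, quantile normalization, genes above the median signal or without WT chow replicate 2.

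Of 8 partners and feedback regulators of ATF4, 2 fell in KO against WT on HFD and 0 rose. Ddit4, an inhibitor of mTORC1, gave 7.04, 6.37 and 7.16 log2 in KO on HFD and 8.65, 8.47 and 8.51 log2 in WT on HFD. Every WT liver exceeded every KO liver, and the difference was -1.69 ± 0.20 log2 (limma adjusted p = 0.000349). In WT livers Ddit4 was 1.31 ± 0.20 log2 higher on HFD than on chow (limma adjusted p = 0.00271), the 1 gene of this list that passed there. In KO livers Ddit4 was lower on HFD than on chow without overlap, at -0.96 ± 0.20 log2, but did not pass (limma adjusted p = 0.0961). On chow it was higher in KO than in WT without overlap, by 0.58 ± 0.20 log2, and did not pass (limma adjusted p = 0.583). Nupr1, a small stress-induced chromatin protein, fell by 0.46 log2 in KO on HFD (SE 0.12, limma adjusted p = 0.03), and its call was lost without KO HFD replicate 1 (0.0959), KO HFD replicate 3 (0.0665), WT HFD replicate 2 (0.116) or WT HFD replicate 3 (0.086).

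Of 2 listed hormone genes of the pathway 1 was measured, Fgf21, as Gdf15 had no probe set annotated to it alone. Fgf21 went the way of Atf5. It gave 8.36, 8.22 and 9.62 log2 in KO on HFD, against 6.61, 6.93 and 6.81 log2 in WT on HFD, and the groups did not overlap. The difference was 1.95 ± 0.30 log2 (limma adjusted p = 0.00152). In WT livers Fgf21 was lower on HFD than on chow (-1.57 ± 0.30 log2, limma adjusted p = 0.00853), and between KO and WT on chow it differed by -0.01 ± 0.30 log2.

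Of 7 measured serine, glycine and one-carbon enzymes 0 passed in KO against WT on HFD or in WT on HFD against chow, with medians of -0.15 and 0.10 log2. Of 8 measured amino acid transporters 2 fell in KO on HFD and 0 rose: Slc7a11, the cystine importer, at -0.67 ± 0.10 log2 (limma adjusted p = 0.00117) and Slc1a4, an alanine, serine and cysteine carrier, at -0.60 ± 0.15 log2 (limma adjusted p = 0.0215). Slc7a11 signals of 3.98 to 4.84 log2 lay at the dim end, and the call of Slc1a4 was lost without KO HFD replicate 2 (0.0838) or WT HFD replicate 3 (0.0885). Both rose in WT on HFD against chow, where 2 of 8 passed, Slc7a11 by 0.58 log2 and Slc1a4 by 0.73 log2. For Slc1a4 the limma adjusted p was 0.0118, or 0.0516 without WT HFD replicate 3. Of 11 measured cytosolic aminoacyl-tRNA synthetases, which charge tRNAs, 1 rose and 1 fell in each of these 2 comparisons. In KO against WT on HFD Wars differed by -0.51 ± 0.08 log2 (limma adjusted p = 0.00215) and Iars by 0.32 ± 0.08 log2 (limma adjusted p = 0.0244), where the call of Iars was lost without KO HFD replicate 2 or 3 or any WT HFD replicate (0.0604 to 0.0829) and with each array centred on its median (0.0937). In WT on HFD against chow Wars was at 0.33 log2 (limma adjusted p = 0.0359) and Iars at -0.29 log2 (limma adjusted p = 0.0498). Neither passed there without any 1 of the 6 WT arrays or without KO chow replicate 3 (0.0517 to 0.123 for Wars, 0.0604 to 0.142 for Iars), nor with the replicate block (0.0639 for Wars and 0.0838 for Iars), and Iars also not without KO HFD replicate 2 (0.0633), KO chow replicate 1 (0.0714) or KO chow replicate 2 (0.0611). With only the arrays compared, 1 of the 11 synthetases passed in KO against WT on HFD and 0 in WT on HFD against chow.

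The 9 other reported ATF4 targets also held calls in both directions. In KO against WT on HFD 3 rose and 2 fell, where 3.89% and 6.62% of all genes did. Got1, a transaminase that makes aspartate, was 13.20, 13.08 and 13.03 log2 in KO on HFD and 11.84, 11.91 and 12.34 log2 in WT on HFD, a difference of 1.07 ± 0.16 log2 (limma adjusted p = 0.00121). Cth, which makes cysteine from cystathionine, was 0.60 ± 0.11 log2 higher in KO (limma adjusted p = 0.00394). On chow Cth was also higher in KO without overlap, by 0.46 ± 0.11 log2, but did not pass (limma adjusted p = 0.312). Unlike Atf5, Cth was lower on HFD than on chow in KO too, without overlap, at -0.37 ± 0.11 log2 (limma adjusted p = 0.292). The third riser in KO against WT on HFD was Cbs, the enzyme before Cth, at 0.33 ± 0.08 log2 (limma adjusted p = 0.021), whose call was lost without KO HFD replicate 3 (0.0546), WT HFD replicate 2 (0.076) or WT HFD replicate 3 (0.0813).

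Vldlr, a lipoprotein receptor, averaged 5.41 ± 0.36 log2 in KO on HFD, against 7.18 ± 0.12 log2 in WT on HFD (SD, n = 3 each), a difference of -1.77 ± 0.16 log2 (limma adjusted p = 5.99e-05). Its KO HFD mean lay within the range of the genes of other tissues, 4.21 to 5.85 log2, so dim signal limits the size of this difference. Herpud1, a component of ER-associated degradation, gave 11.71, 11.97 and 12.23 log2 in KO on HFD against 13.18, 13.22 and 13.17 log2 in WT on HFD, a difference of -1.22 ± 0.19 log2 (limma adjusted p = 0.00165). Neither gene overlapped between the groups. In WT on HFD against chow the same 2 rose, Vldlr by 0.87 and Herpud1 by 0.93 log2, and Got1, Cth and Cbs were lower, at -0.97, -0.51 and -0.37 log2. There the call of Cth was lost without WT HFD replicate 2 (0.0534) or WT chow replicate 1 (0.0549), and that of Cbs without WT HFD replicate 2 (0.0727), WT HFD replicate 3 (0.0731) or WT chow replicate 3 (0.0786).

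Genes of the parallel ATF6 and XBP1 branches moved as Ddit3 and Chac1 did on HFD. The list holds ER chaperones and related ER proteins, the ER-associated degradation genes Syvn1, Sel1l and Edem1, and Atf6 and Xbp1 themselves. Of 17 measured, 12 fell and 0 rose in KO against WT on HFD, where 6.62% and 3.89% of all genes did. Their median was -0.75 log2. Hspa5, the chaperone BiP, gave 9.76, 9.84 and 10.30 log2 in KO on HFD and 11.12, 11.28 and 11.08 log2 in WT on HFD, a difference of -1.20 ± 0.17 log2 (limma adjusted p = 0.00104). Creld2, a secreted ER stress protein, gave 9.92, 9.88 and 10.18 log2 in KO on HFD and 11.60, 11.99 and 12.04 log2 in WT on HFD, a difference of -1.89 ± 0.16 log2 (limma adjusted p = 2.86e-05). Neither overlapped between the groups, and Hyou1, another ER chaperone, differed by -1.36 ± 0.14 log2 (limma adjusted p = 0.000148).

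In WT on HFD against chow 12 of the 17 genes of the ATF6 and XBP1 list rose and 0 fell, where 4.02% and 2.94% of all genes did. Their median was 0.63 log2. The count of 12 was 4 without WT HFD replicate 2 or WT chow replicate 1, 5 without WT HFD replicate 3 and 7 without WT chow replicate 3. Between KO and WT on chow 0 of the 17 passed, yet 13 had a negative difference (median -0.16 log2, all genes -0.003). The KO arrays lay lower without overlap for 3, where 13.2% of all genes did not overlap either way. The interaction was called negative for 5 of the 17, where 2.1% of all genes were, and for as few as 1 with 1 array left out. Of 5 mitochondrial stress chaperones and proteases, 1 fell in KO on HFD, the protease gene Lonp1, at -0.42 log2 (limma adjusted p = 0.0185, and 0.0616 without KO HFD replicate 1, 0.0688 without WT HFD replicate 1 or 0.0531 without WT HFD replicate 2). In HFD against chow in KO, 1 gene of all these lists passed, Vldlr, at -1.05 ± 0.16 log2 (limma adjusted p = 0.0212), and its call was lost without KO chow replicate 1 (0.0571), 2 (0.113) or 3 (0.0698), with the replicate block (0.0515) or with only the arrays compared (0.105). In KO against WT on chow 0 passed in limma.

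**Figure D3:**
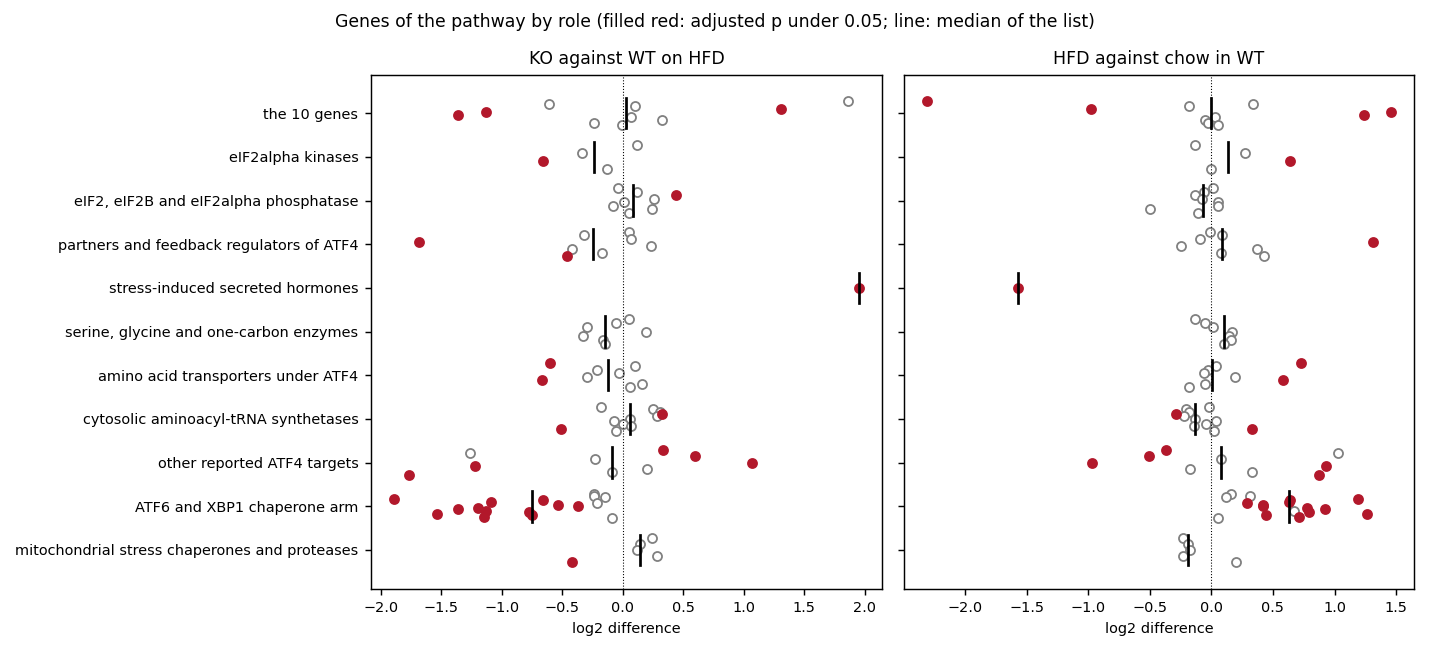
Log2 differences (horizontal axis) of every measured gene of the pathway, by role (rows), in KO against WT on HFD (left) and HFD against chow in WT (right); filled red points passed the test and the black line is the median of a list. The ATF6 and XBP1 row lies left of 0 in the first panel (median -0.75) and right of 0 in the second (median 0.63), and the rows of the 10 genes and of other ATF4 targets hold filled points on both sides of 0 in both panels.

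Both of these comparisons use the 3 WT HFD arrays, so their opposite signs are not independent of each other. Other genes moved in the same arrays. Of 6 recruited macrophage markers 4 were lower in KO than in WT on HFD, where 6.62% of all genes were, among them Mmp12 (-1.73 ± 0.13 log2, limma adjusted p = 1.39e-05). Cd9 lay the other way without overlap, at 0.34 ± 0.10 log2, but did not pass (limma adjusted p = 0.0564, and 0.0459 without KO HFD replicate 1 or 0.0251 without WT chow replicate 2). In WT on HFD against chow 5 were higher and 1 lower, where 4.02% and 2.94% of all genes were. The lower one was Cd9, at -0.47 ± 0.10 log2 (limma adjusted p = 0.0178, but 0.0513 to 0.0778 without any 1 WT HFD array, WT chow replicate 1 or WT chow replicate 3). The summed signal of the 6 markers was 8.96 to 9.08 log2 in KO on HFD, against 9.43 to 9.99 log2 in WT on HFD, and 8.88 to 9.04 log2 in KO on chow, against 8.86 to 9.06 log2 in WT on chow. The mean of their log2 signals was 6.09 to 6.20 in KO on HFD, near the 4.21 to 5.85 log2 of the genes of other tissues. Dim signal may therefore limit the size of these differences. Of 6 stellate cell markers 3 were lower in KO than in WT on HFD, where 6.62% of all genes were, among them Col1a1 (-1.10 ± 0.13 log2, limma adjusted p = 0.000379), with sums of 12.75 to 12.90 log2 in KO and 12.90 to 13.09 log2 in WT. Of 5 endothelial markers 1 was lower there, Lyve1 (-1.35 ± 0.37 log2, limma adjusted p = 0.0346). Its call was lost without KO HFD replicate 1 or 2 or any 1 WT HFD array. Kdr lay the other way without overlap, at 0.33 ± 0.11 log2, but did not pass (limma adjusted p = 0.078). The endothelial sums were 12.65 to 12.76 log2 in KO and 12.89 to 12.91 log2 in WT on HFD. Of 5 Kupffer cell markers 0 passed in limma in KO against WT on HFD, and 2 did at an unadjusted p under 0.05. These were Cd5l (-0.59 ± 0.19 log2, adjusted p 0.0646) and Adgre1 (-0.62 ± 0.20 log2, adjusted p 0.066), both lower in KO without overlap. Both passed with arrays centred on their median (0.0364 for Cd5l, 0.0426 for Adgre1), among genes above the median signal (0.032 and 0.0331) and without WT chow replicate 3 (0.0468 and 0.0392). Cd5l also passed without KO HFD replicate 1 (0.0498) or WT chow replicate 1 (0.0452), and Adgre1 without WT HFD replicate 1 (0.0421). Under every other alternative 0 of the 5 passed. Of 5 lymphocyte, 4 adipocyte and 4 cholangiocyte markers measured, 0 passed in KO against WT on HFD or in WT on HFD against chow. With only the arrays compared, 1 cholangiocyte marker passed in KO against WT on HFD.

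Clock genes, which follow the time of day, also moved: of 13 measured, 2 were higher and 4 lower in KO than in WT on HFD, where 3.89% and 6.62% of all genes were. Ciart was lower, at -2.89 ± 0.32 log2 (limma adjusted p = 0.000178), and the 2 that were higher were Clock, at 0.49 ± 0.09 log2 (limma adjusted p = 0.00473), and Arntl, at 1.08 ± 0.29 log2 (limma adjusted p = 0.032, but 0.0586 to 0.105 without any 1 of the 6 HFD arrays). Their summed signal was 12.78 to 13.06 log2 in KO on HFD and 13.01 to 13.12 log2 in WT on HFD. The part of these cell types and of the time of day in the differences of the 10 genes was not tested. In whole liver, fewer cells of a type and less RNA per cell cannot be told apart.

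**Figure D4:**
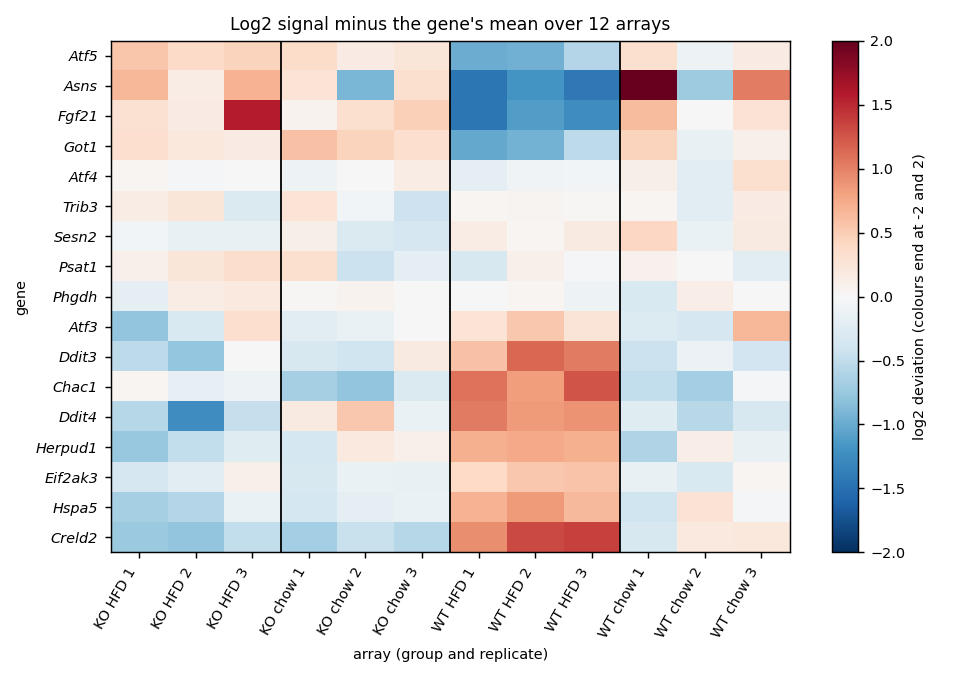
Log2 signal minus the mean of the gene over the 12 arrays (colour, red above and blue below the mean, ending at -2 and 2), for the 10 genes and 7 further genes of the pathway (rows) on each array (columns, by group and replicate). The 3 WT HFD columns are blue for Atf5, Asns, Fgf21 and Got1 and red for Ddit3, Chac1, Ddit4, Herpud1, Eif2ak3, Hspa5 and Creld2, and Atf4, Trib3 and Phgdh are pale on all arrays.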

How the data were processed

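Total RNA of 12 livers was measured, 1 array each. Per the submitters' processing notes, the authors used oligo to make the deposited log2 signals. Its version, background correction and normalization are not given in the labels. The values were used as deposited. Of 41345 probe sets, 23521 carried 1 gene symbol, 1814 several and 16010 none. Where a gene had several probe sets (1082 of 22180 genes), that with the highest mean was used. Gene numbers of 21994 genes matched RefSeq (GRCm38.p6).

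One limma model (version 3.58.1, R 4.3.3, lmFit and eBayes) covered all arrays and gave 6 comparisons, with Benjamini-Hochberg adjustment over all genes and calls under 0.05. The code was tested on simulated data. Summed signals are log2 of the sum of linear values.

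The 10 genes and all lists were chosen with earlier results of these data known. Of 153 list genes 140 were measured. The rule for named genes allowed the 10 genes, up to 4 genes of a list with the smallest p, any going the other way, and Eif2ak3, Eif2ak4, Fgf21, Hspa5 and Ahnak. Replicate numbers were tested as a block: deviations of same-numbered arrays correlated by -0.06 to 0.08, so they were not taken as pairs. The alternatives were this block, trend and robust eBayes, array weights, quantile normalization, median centring, genes above the median, the mean of a gene's probe sets, only the arrays compared, and each array left out.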

Additional observations from a re-analysis of the deposited data

Results flagged for a closer look

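The response to diet differed between the genotypes by the test of that difference for 2 of the 10 genes, where 3.53% of all genes (783 of 22180) passed. For Atf5, HFD minus chow in KO exceeded HFD minus chow in WT by 1.18 log2 (SE 0.18, limma adjusted p = 0.0051): Atf5 differed by 0.20 ± 0.13 log2 between the diets in KO and by -0.98 ± 0.13 log2 in WT. For Ddit3 the difference of the diet responses was -1.49 log2 (SE 0.30, limma adjusted p = 0.0207), with -0.24 ± 0.22 log2 in KO and 1.24 ± 0.22 log2 in WT. The Ddit3 call was lost without KO chow replicate 3, WT HFD replicate 2, WT HFD replicate 3 or WT chow replicate 3 (adjusted p 0.0504 to 0.0571).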

How the results depend on the processing

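Of 1174 values of the 10 genes under the alternatives, 1135 kept their call, and 54 of 60 results kept it throughout; the exceptions were Asns in KO against WT on HFD, in HFD against chow in WT and in the interaction, Ddit3 over both diets and in the interaction, and Chac1 in the interaction. Beyond the left-out arrays, Asns in KO against WT on HFD passed with the replicate block (adjusted p 0.0421) and with dim genes left out (0.0398), and its change in WT was lost with trend and robust eBayes (0.0947) or only the arrays compared (0.108). With the replicate block, the calls among the 10 were 0 in KO against WT on chow, 4 on HFD, 3 over both diets, 4 for HFD against chow in WT, 0 for the same in KO, and 3 in the interaction. Same-numbered arrays correlated best with each other in 8 of 24 cases. Of all genes, KO against WT on chow gave 0 calls with the block or only the arrays compared, 18 with trend and robust eBayes and 19 above the median signal. HFD against chow in KO gave 124 with trend and robust eBayes, 124 above the median signal and 21 with only the arrays compared. The interaction gave 1201 with trend and robust eBayes and 1395 above the median signal, where 4 of the 10 genes passed, and KO against WT over both diets gave 1611 above the median signal. With each array left out in turn, calls among the 10 were 0 to 0 in KO against WT on chow, 3 to 4 on HFD, 2 to 3 over both diets, 3 to 4 for HFD against chow in WT, 0 to 0 for the same in KO, and 1 to 3 in the interaction, and of all genes 0 to 5, 1506 to 2326, 645 to 1045, 815 to 1691, 28 to 79 and 432 to 718 in the same order. The count for KO against WT on HFD was lowest without WT HFD replicate 3, that over both diets without KO chow replicate 1, that for HFD against chow in WT without WT chow replicate 3, and those for HFD against chow in KO and the interaction without KO chow replicate 2. The causes were not tested. Centring arrays on their median moved the split of higher and lower calls of all genes to 545 and 1937 in KO against WT on HFD (862 and 1469 as deposited), 238 and 961 over both diets (321 and 746), 1089 and 457 for HFD against chow in WT (891 and 652), and 221 and 623 in the interaction (318 and 465). Background correction and slide were not tried, since only summarized values were used. Dim signal limits Psat1, Slc7a11 and the KO HFD values of Vldlr, and may limit the recruited macrophage markers.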
